A study of Mus musculus with 27 samples.

Results

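Collagen crosslinking and hydroxylating enzymes are described here as 10 genes of 53379 in the count table, taken by gene name with earlier results of these data known. They are 5 lysyl oxidases (Lox, Loxl1, Loxl2, Loxl3 and Loxl4), 3 lysyl hydroxylases (Plod1, Plod2 and Plod3) and 2 catalytic subunits of prolyl 4-hydroxylase (P4ha1 and P4ha2), and all 10 were among the 18758 genes abundant enough to be tested. They were followed in hepatic stellate cells (HSCs), which store vitamin A in the liver and make its scar matrix when activated, of male Balb/c mice. Retinoid fluorescence under ultraviolet light was the basis of the sort, the cells were lysed without culture, and 27 libraries in 7 groups were sequenced. Healthy mice (n = 4, 10 to 12 weeks old) received nothing, so they are not a control for injection or for the mineral oil in which the toxin was diluted. All other mice received carbon tetrachloride (CCl4), a hepatocyte toxin, into the peritoneum at 0.5 µL per g of body weight. Acute groups (10 to 12 weeks old) had 1 injection, with 3 libraries from 24 h later, 4 from 72 h and 4 from 7 d. Chronic groups (8 to 10 weeks old when the course began) had 8 injections over 4 weeks and were collected 24 h, 72 h or 14 d after the last one (n = 4 each). Their age at collection was thus higher by the length of the course, and the part of age in the enzyme levels was not tested. The study's methods describe the libraries of a group as biological repeats from separate experiments, and p-values set differences between groups against the spread between such libraries.

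Collagen chains are modified in the endoplasmic reticulum before they leave the cell. Prolyl 4-hydroxylase hydroxylates prolines, without which the triple helix is not stable at body temperature, and lysyl hydroxylases hydroxylate lysines, which sets the kind of crosslink formed later. Outside the cell, lysyl oxidases oxidise lysines and hydroxylysines of collagen and elastin, and the aldehydes react into the covalent crosslinks that stiffen a scar and slow its breakdown. In liver fibrosis the activated HSC is a main source of fibrillar collagen.

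Levels are given as CPM, counts relative to a library total scaled between libraries, and a gene is said to have risen or fallen where edgeR's quasi-likelihood test gave a Benjamini-Hochberg adjusted p below 0.05 over all 18758 genes and a change above 2-fold. Total counts ran from 6.31 to 13.1 M per library, and 8 libraries (chronic 24 h replicates 1 and 2, chronic 72 h replicates 1 and 2, and all of chronic 14 d) formed a lower-depth class of at most 7.58 M. The other 19 libraries had at least 10.8 M. Stellate markers were present in every library, with a summed level of the 10-gene list between 7113 and 26880 CPM and none of the 10 at a count of 0. The sum was 20390 to 26880 CPM in healthy libraries and lower in all injured groups. Macrophage markers were present too, at a sum of 124 to 518 CPM in healthy, 431 to 3121 CPM in chronic 24 h and 3924 to 10110 CPM in acute 7 d libraries. Lyz2 had the highest counts of that list, up to 106629 in a library. In chronic 24 h against healthy libraries 5 of its 8 genes rose and 0 fell (11.2% and 8.11% of all genes). Clec4f was not higher, at 120 ± 73.7 CPM in healthy and 85.7 ± 56.3 CPM in chronic 24 h libraries (SD, n = 4). The portal fibroblast and mesothelial sum was 83.5 to 113 CPM in healthy, 50.5 to 97.5 CPM in acute 24 h, 306 to 424 CPM in chronic 24 h and 461 to 918 CPM in chronic 72 h libraries. Its genes did not move together. Dpt had the highest counts (280 to 9018), and Msln had none in 22 libraries. In chronic 24 h against healthy libraries 3 of 7 tested genes rose and 1 fell. Clec3b was at 42.5 ± 9.49 CPM in healthy and 7.80 ± 2.75 CPM in chronic 24 h libraries (SD, n = 4). The sum of the 5-gene cholangiocyte list was 51.8 to 91.8 CPM in healthy, 518 to 1270 CPM in chronic 24 h and 731 to 4779 CPM in acute 7 d libraries. Nearly all of it was Spp1, which other cells also express, and Krt19, Krt7, Epcam and Cldn4 had at most 90 counts in any library and none in 4 to 11 of them. Hepatocyte markers were lowest in acute 24 h libraries (30.8 to 389 CPM) and lay between 628 and 11180 CPM in the other groups, sinusoidal endothelial markers lay between 42.8 and 596 CPM, and lymphocyte markers did not exceed 43.1 CPM in any library. The part of these cells in the enzyme levels was not tested. In bulk RNA, fewer cells of a type and less RNA per cell cannot be told apart.

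Among the lysyl oxidases, Lox, Loxl2 and Loxl1 rose after injury, Loxl3 was near its healthy level throughout, and Loxl4 was lower in chronic 72 h libraries. Lox rose in all 6 injured groups, Loxl2 in 5 and Loxl1 in 3. The plot of levels by library shows each of the 10 genes on its own axis.

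**Figure D1:**
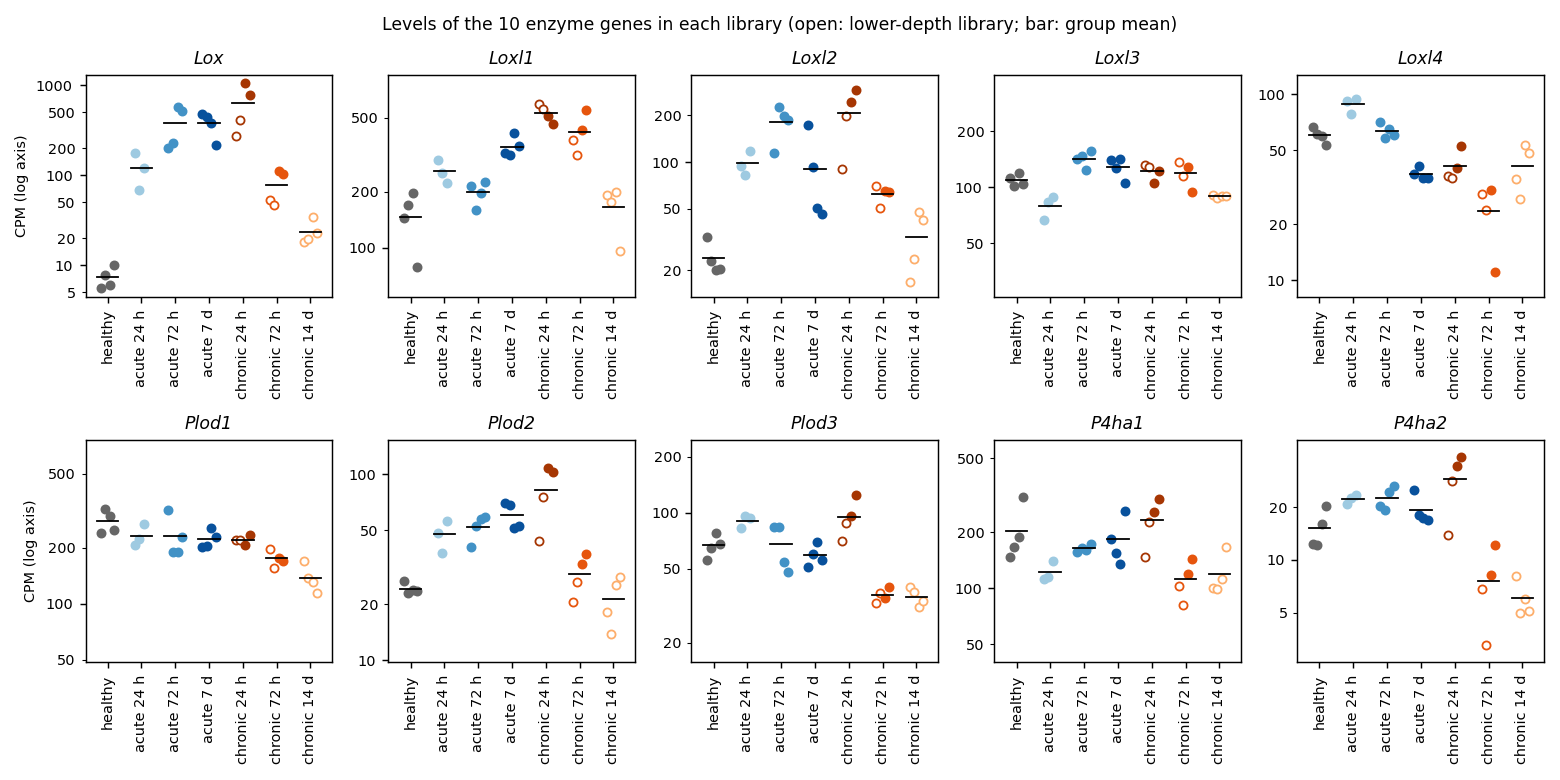
Level of each of the 10 enzyme genes (CPM, log axis) in the 27 libraries by group, with lower-depth libraries as open points and the group mean as a bar. Lox lies between 5.62 and 10.1 CPM in healthy libraries and between 276 and 1051 CPM in chronic 24 h libraries.

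Lox encodes the founding lysyl oxidase (ENSMUSG00000024529; GRCm38, minus strand of chromosome 18, bases 52516067 to 52529867). Healthy libraries had 5.62, 7.90, 5.98 and 10.1 CPM. In chronic 24 h libraries it was at 276 and 412 CPM in the 2 of lower depth and at 1051 and 786 CPM in the 2 of higher depth. Every one of them was above every healthy library, and the log2 fold change was 6.41 (SE 0.53, adjusted p 6.36e-09, edgeR).

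After a single injection Lox stood at 176, 68.6 and 120 CPM at 24 h, at 201, 227, 574 and 517 CPM at 72 h, and at 483, 445, 376 and 216 CPM at 7 d. The acute log2 fold changes against healthy were 4.04 (SE 0.49) at 24 h, 5.68 (SE 0.51) at 72 h and 5.68 (SE 0.51) at 7 d, with adjusted p from 7.70e-08 to 1.63e-06 (edgeR). No acute library overlapped a healthy one. In the chronic course Lox was at 52.9, 46.9, 113 and 103 CPM at 72 h (3.41, SE 0.47, adjusted p 1.52e-05, edgeR) and at 18.1, 19.5, 34.8 and 22.6 CPM at 14 d (1.68, SE 0.44, adjusted p 0.0184, edgeR). The 14 d libraries still lay above all healthy ones, but this call was lost without healthy replicate 1 (1.57, adjusted p 0.0593), healthy replicate 3 (1.59, adjusted p 0.0581) or chronic 14 d replicate 3 (1.48, adjusted p 0.0587). All chronic 14 d libraries are of lower depth and all healthy ones of higher depth, and with depth class as a term in the model the value was 2.94 and the call was kept. Only chronic 24 h and chronic 72 h hold both classes, so they alone set that term. The refit assumes that depth acts alike at 14 d and cannot check it. From low to high the group means of Lox ran healthy, chronic 14 d, chronic 72 h, acute 24 h, acute 72 h, acute 7 d and chronic 24 h. Neighbours whose difference did not pass the test were chronic 72 h and acute 24 h (adjusted p 0.292), acute 72 h and acute 7 d (1.00), and acute 7 d and chronic 24 h (0.256, edgeR).

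Loxl2, a lysyl oxidase with scavenger-receptor domains that acts on fibrillar and basement-membrane collagen (ENSMUSG00000034205; chromosome 14, plus strand, 69609068 to 69695834), had 32.7, 23.0, 20.1 and 20.4 CPM in healthy libraries. Chronic 24 h libraries had 90.7, 199, 246 and 294 CPM, all above healthy (log2 fold change 3.11, SE 0.41, adjusted p 3.70e-06, edgeR). Acute libraries had 94.6, 82.3 and 118 CPM at 24 h (2.03, adjusted p 0.000505) and 115, 227, 198 and 188 CPM at 72 h (2.92, adjusted p 1.76e-05, edgeR). At acute 7 d the spread was wide, with 174, 92.8, 50.6 and 46.1 CPM (1.92, adjusted p 0.000982, edgeR), and without replicate 1 the log2 fold change was 1.41. Chronic 72 h libraries had 69.7, 50.4, 65.1 and 64.2 CPM (1.37, adjusted p 0.0137, edgeR), and chronic 14 d libraries had 16.9, 23.6, 47.8 and 42.0 CPM, which overlapped the healthy ones (0.44, adjusted p 0.544). Loxl2 shares 301 bases of exon with Gm27177, an antisense gene, and since no source states that counting used strand, reads there cannot be assigned with certainty.

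Loxl1, which acts in elastic fibre assembly (ENSMUSG00000032334; chromosome 9, minus strand, 58287738 to 58313186), was already high in healthy HSCs, at 144, 170, 196 and 78.2 CPM. It rose to 595, 560, 513 and 463 CPM in chronic 24 h libraries (log2 fold change 1.86, SE 0.24, adjusted p 3.19e-06) and stood at 379, 314, 430 and 552 CPM in chronic 72 h libraries (1.51, adjusted p 8.52e-05, edgeR). At acute 7 d it rose to 321, 314, 412 and 351 CPM (1.25, adjusted p 0.000504, edgeR). At acute 24 h its difference passed the adjusted p alone (0.81, adjusted p 0.0151), and at acute 72 h and chronic 14 d neither criterion was met (0.44 and 0.17). Unlike Lox and Loxl2, Loxl1 had its higher chronic 24 h values in the libraries of lower depth.

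Loxl3 (ENSMUSG00000000693; chromosome 6, plus strand, 83034173 to 83052562), a relative of Loxl2 with the same domain plan, was called in none of the 6 comparisons with healthy libraries. Its healthy libraries lay between 102 and 119 CPM. Acute 24 h libraries had 67.0, 83.2 and 88.7 CPM, all below healthy (-0.46 in log2, adjusted p 0.0131, edgeR), and acute 72 h libraries had 124 to 156 CPM, all above healthy (0.38, adjusted p 0.0328, edgeR). Both changes were under 2-fold. Loxl3 shares 535 bases of exon with Htra2 on the other strand.

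Loxl4 (ENSMUSG00000025185; chromosome 19, minus strand, 42593982 to 42612813), the remaining member of that subfamily, lay between 53.2 and 66.5 CPM in healthy libraries. It fell to 28.9, 23.9, 30.5 and 11.0 CPM in chronic 72 h libraries (log2 fold change -1.35, SE 0.23, adjusted p 0.000193, edgeR). In acute 24 h libraries it was at 92.3, 78.4 and 94.4 CPM, above all healthy libraries, with a change that did not pass the test (0.55, adjusted p 0.0798). Acute 7 d libraries had 35.3 to 41.3 CPM (-0.69, adjusted p 0.0298, edgeR, under 2-fold). Its highest group mean was that of acute 24 h (88.4 CPM) and its lowest that of chronic 72 h (23.6 CPM).

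**Figure D2:**
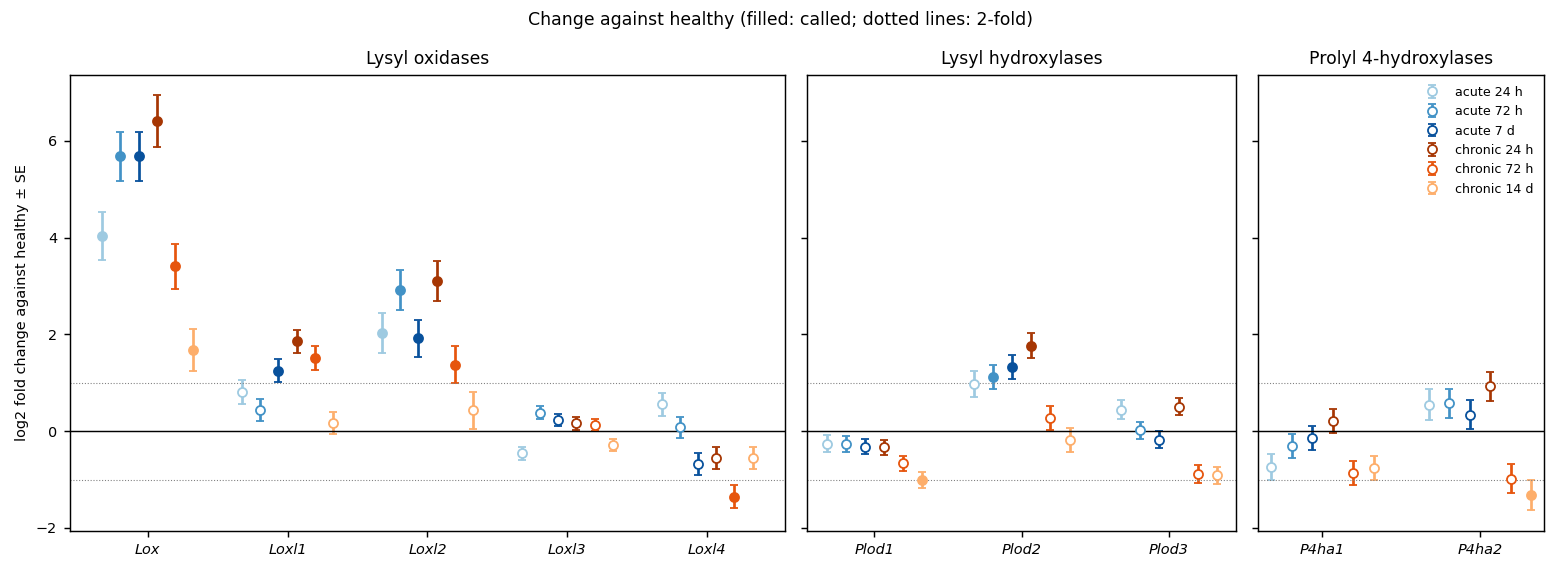
Log2 fold change against healthy libraries with its SE for the 10 genes in 6 injured groups, with called changes filled and 2-fold marked by dotted lines. Lox has the highest values, from 1.68 at chronic 14 d to 6.41 at chronic 24 h, and Plod1, Plod3, P4ha1 and P4ha2 are below 0 in chronic 72 h and chronic 14 d libraries.

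Levels of different genes were compared per length, as RPKM (CPM divided by the exon length in kilobases). In healthy HSCs Loxl1 held 49.1% ± 9.16 of the summed RPKM of the 5 lysyl oxidase genes and Loxl3 27.5% ± 5.14, while Lox held 1.88% ± 0.958 (SD, n = 4). In chronic 24 h libraries Lox held 33.9% ± 13.2, Loxl1 45.7% ± 13.3 and Loxl3 7.50% ± 2.06 (SD, n = 4), and the family sum was 368 ± 71.9 RPKM against 88.6 ± 16.8 RPKM in healthy libraries. In chronic 72 h libraries Lox held 8.59% ± 2.53 and Loxl1 67.7% ± 4.75 (SD, n = 4). The Lox share was still above that of every healthy library (6.30% to 11.7% against 1.20% to 3.27%). Chronic 14 d libraries had a family sum of 90.3 ± 14.9 RPKM, of which Lox made up 5.50% ± 1.33 (SD, n = 4).

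**Figure D3:**
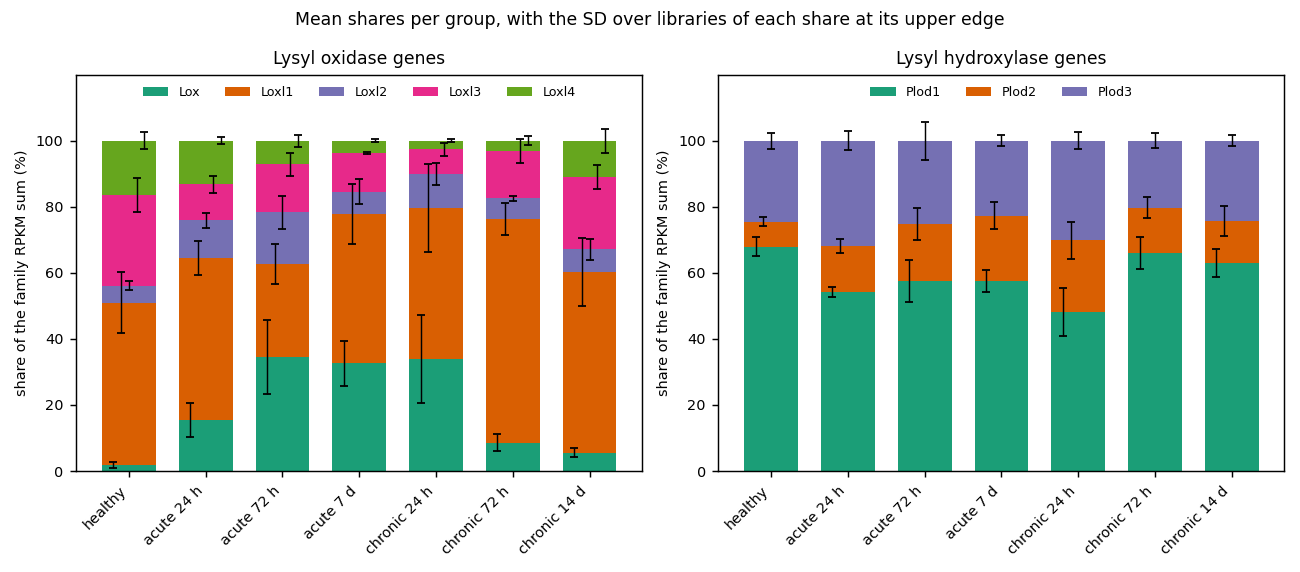
Mean share of each gene in the summed RPKM of its family (%), lysyl oxidases on the left and lysyl hydroxylases on the right, for 7 groups, with the SD over libraries of each share drawn at its upper edge. Lox goes from 1.88% in healthy to 33.9% in chronic 24 h libraries, and Plod2 from 7.57% to 21.8%.

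Of the lysyl hydroxylases, Plod2 rose, whereas Plod1 and Plod3 ended below their healthy levels in the chronic course. Plod2 encodes the enzyme that hydroxylates lysines of the collagen telopeptides (ENSMUSG00000032374; chromosome 9, plus strand, 92542223 to 92608428). Its healthy libraries were close together, at 26.7, 23.1, 23.9 and 23.5 CPM. Chronic 24 h libraries had 43.6, 75.9, 108 and 103 CPM, all above healthy (log2 fold change 1.77, SE 0.25, adjusted p 9.56e-06, edgeR). It also rose at acute 72 h, to 40.5, 52.5, 57.7 and 59.1 CPM (1.11, adjusted p 0.00219), and at acute 7 d, to 70.1, 68.4, 51.4 and 52.9 CPM (1.32, adjusted p 0.000447, edgeR). At acute 24 h it was at 48.5, 38.0 and 56.3 CPM, also above every healthy library, and missed the fold limit at 0.97 (adjusted p 0.00596, edgeR). Chronic 72 h (20.5 to 37.3 CPM) and chronic 14 d libraries (13.9 to 28.2 CPM) overlapped healthy ones, with log2 fold changes of 0.27 and -0.18 (adjusted p 0.479 and 0.726). Plod2 shares 346 bases of exon with Gm38391 on the other strand.

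Plod1, which hydroxylates lysines of the helical part (ENSMUSG00000019055; chromosome 4, minus strand, 147909753 to 147936767), was the lysyl hydroxylase with the highest RPKM in every group. Its healthy libraries had 241, 323, 297 and 250 CPM. Chronic 14 d libraries had 169, 137, 130 and 115 CPM, all below healthy (-1.01 in log2, SE 0.16, adjusted p 0.000257, edgeR). This value is at the 2-fold limit, and the call was lost in 11 of 19 alternatives (range -1.12 to -0.84), in 10 of them because the change was under 2-fold and in the other by a test against a 2-fold minimum. Chronic 72 h libraries (156 to 198 CPM) were lower than healthy by adjusted p alone (-0.66, adjusted p 0.00401, edgeR).

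Plod3 encodes a lysyl hydroxylase that also transfers sugars onto hydroxylysine (ENSMUSG00000004846; chromosome 5, plus strand, 136987019 to 136996648). Healthy libraries had 55.8, 64.8, 78.0 and 68.3 CPM, and chronic 24 h libraries had 70.5, 88.4, 96.6 and 124 CPM (log2 fold change 0.51, adjusted p 0.0333, edgeR, under 2-fold and overlapping). At chronic 72 h and chronic 14 d it lay between 31.3 and 40.0 CPM in all 8 libraries, below every healthy library (-0.89 and -0.92, adjusted p 0.00104 and 0.00230, edgeR, both under 2-fold). Plod3 shares 529 bases of exon with Znhit1 on the other strand.

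In RPKM, Plod2 made up 7.57% ± 1.30 of the lysyl hydroxylase sum in healthy and 21.8% ± 5.64 in chronic 24 h libraries (SD, n = 4), while the sum itself was 60.3 ± 6.69 and 69.0 ± 10.4 RPKM. In chronic 72 h and chronic 14 d libraries the sum was 39.3 ± 2.12 and 32.2 ± 3.35 RPKM (SD, n = 4).

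Neither P4ha1 nor P4ha2 was called higher than healthy in any of the 6 injured groups. P4ha1 (ENSMUSG00000019916; chromosome 10, plus strand, 59323296 to 59373304), the catalytic subunit of the main form of the enzyme, had 148, 167, 188 and 309 CPM in healthy and 148, 228, 256 and 303 CPM in chronic 24 h libraries, which overlapped (log2 fold change 0.20, adjusted p 0.566). It was at 112, 115 and 140 CPM in acute 24 h (-0.73, adjusted p 0.0390) and at 103, 81.7, 119 and 144 CPM in chronic 72 h libraries (-0.86, adjusted p 0.0157, edgeR), both below all healthy libraries and both under 2-fold.

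P4ha2, the alternative catalytic subunit (ENSMUSG00000018906; chromosome 11, plus strand, 54100095 to 54131665), had the lowest mean RPKM of the 10 genes in all 6 injured groups. Healthy libraries had 12.3, 12.2, 16.0 and 20.2 CPM. In chronic 24 h libraries it was at 13.9 and 28.1 CPM at lower depth and at 34.3 and 38.6 CPM at higher depth (log2 fold change 0.92, SE 0.30, adjusted p 0.0197, edgeR, under 2-fold). With depth class as a term in the model the value was 1.31 (adjusted p 0.000563), and in the higher-depth libraries alone it was 1.28 (adjusted p 0.000641, edgeR), both past the fold limit. Chronic 14 d libraries had 8.10, 5.0, 6.01 and 5.14 CPM, below all healthy libraries (-1.32, SE 0.31, adjusted p 0.00770, edgeR). These groups differ in depth class, and with that class as a term the value was -0.43 (adjusted p 0.514, edgeR). Here too the term is set by the chronic 24 h and chronic 72 h libraries alone. Chronic 72 h libraries had 6.80, 3.29, 8.17 and 12.1 CPM, on 51, 23, 105 and 155 reads, just short of a 2-fold decrease (-0.98 in log2, adjusted p 0.0227, edgeR).

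Promoter sequences of 5 of the 10 genes (Loxl4, Plod1, Plod3, P4ha1 and P4ha2) were in the RefSeq table of GRCm38.p6. In the 250 bases before the start, on both strands, ACGTG (the core of the hypoxia response element, to which hypoxia-inducible factors bind) matched in 3 of the 5, Plod3, P4ha1 and P4ha2, against 16.6% of 32851 promoters. GGAATG (the core of the site for TEAD, the DNA-binding partner of YAP) matched in 0 of the 5 (12.6% of all promoters), and TATAAA (the TATA box) in Plod1 alone, on the other strand (12.4%). A match is a run of letters and not a bound site. The 5 windows hold 55.6% to 76.0% G and C, and the 32851 promoters were not matched for this. In the Plod3 window 208 of the 250 bases lie in annotated exons of Znhit1. The upstream bases of P4ha1 (chr10:59323046-59323295, plus strand) and P4ha2 (chr11:54100674-54100923, plus strand) are shown because both genes fell together between chronic 24 h and chronic 72 h, and those of Plod1 (chr4:147936777-147937026, minus strand) because it was not called in that comparison. Capitals mark ACGTG on either strand, none of the 3 windows touches an annotated exon, and that of P4ha2 lies inside the gene as GENCODE draws it, between exons.
P4ha1: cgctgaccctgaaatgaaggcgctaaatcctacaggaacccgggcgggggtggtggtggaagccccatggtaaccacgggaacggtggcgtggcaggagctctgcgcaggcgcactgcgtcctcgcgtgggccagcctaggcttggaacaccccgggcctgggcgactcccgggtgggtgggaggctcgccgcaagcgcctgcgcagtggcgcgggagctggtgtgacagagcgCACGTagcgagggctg
P4ha2: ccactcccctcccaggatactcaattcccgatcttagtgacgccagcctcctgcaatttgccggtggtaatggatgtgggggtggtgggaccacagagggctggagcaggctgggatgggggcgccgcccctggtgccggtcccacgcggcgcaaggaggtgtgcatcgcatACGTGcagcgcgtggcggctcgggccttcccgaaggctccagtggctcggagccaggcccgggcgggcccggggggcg
Plod1: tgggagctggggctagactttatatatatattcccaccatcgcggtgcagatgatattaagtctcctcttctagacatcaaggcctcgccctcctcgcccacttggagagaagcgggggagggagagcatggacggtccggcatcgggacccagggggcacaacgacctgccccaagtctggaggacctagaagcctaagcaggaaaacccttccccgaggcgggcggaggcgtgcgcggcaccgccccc

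Of the 10 genes, 4 rose in chronic 24 h against healthy libraries, where 11.2% of all genes rose and 19.3% changed in either direction. The median log2 fold change of the 10 was 0.72, against -0.03 over all genes tested. At chronic 72 h 3 rose and 1 fell, where 12.1% of all genes changed (7.88% rose and 4.20% fell). At chronic 14 d 1 rose and 2 fell, where 5.72% changed (4.55% rose and 1.17% fell). After a single injection 2 rose at 24 h, where 22.0% of all genes changed and 9.41% rose. At 72 h 3 rose (12.6% and 8.23% in turn), and at 7 d 4 rose (14.9% and 9.23%). All 6 comparisons share the healthy libraries.

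Chronic 24 h was set against acute 24 h to ask how the same interval after injury differed between an injured and a previously healthy liver. Lox (log2 fold change 2.38, SE 0.49, adjusted p 0.00114) and Loxl1 (1.05, SE 0.26, adjusted p 0.00533) were higher and Loxl4 (-1.10, SE 0.24, adjusted p 0.00199, edgeR) lower after the chronic course, 3 of 10 where 13.9% of all genes were called (10.9% higher and 3.05% lower). P4ha1 (0.94, adjusted p 0.0156), Plod2 (0.80, adjusted p 0.0352) and Loxl3 (0.62, adjusted p 0.00256, edgeR) were higher by less than 2-fold, and Loxl2 (1.08, adjusted p 0.0691) missed the p threshold. With depth class as a term 6 were called, Loxl2 (1.27, adjusted p 0.0450), Plod2 (1.09, adjusted p 0.00237) and P4ha1 (1.18, adjusted p 0.00328) having been added. The Loxl1 call was lost in 5 of 19 alternatives, among them higher-depth libraries alone (0.89), no acute 24 h replicate 3 (0.96) and no chronic 24 h replicate 1 (0.99), and that of Loxl4 in 2, among them higher-depth libraries alone (-0.96).

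Between 24 h and 72 h after the last of 8 injections most of the enzymes fell. In chronic 72 h against chronic 24 h libraries, 6 of 10 fell, where 3.65% of all genes fell and 8.37% changed. They were Lox (-3.00, SE 0.45, adjusted p 7.56e-05), P4ha2 (-1.91, SE 0.31, adjusted p 0.000145), Loxl2 (-1.74, SE 0.39, adjusted p 0.00340), Plod2 (-1.50, SE 0.25, adjusted p 0.000223), Plod3 (-1.40, SE 0.18, adjusted p 1.67e-05) and P4ha1 (-1.06, SE 0.25, adjusted p 0.00466, edgeR). The libraries of the 2 groups did not overlap for any of these 6. Because the 6 were called on these same libraries, this adds no separate support, and the share over all genes is not given here. All 10 log2 fold changes were negative, with a median of -1.23 against 0 over all genes. Loxl1 (-0.35, adjusted p 0.357), Loxl3 (-0.03, adjusted p 0.904), Loxl4 (-0.80, adjusted p 0.0180, under 2-fold) and Plod1 (-0.33, adjusted p 0.160) were not called. By 14 d against chronic 24 h, 6 had fallen, where 6.11% of all genes fell and 12.8% changed, namely Lox (-4.73), Loxl2 (-2.67), P4ha2 (-2.25), Plod2 (-1.95), Loxl1 (-1.69) and Plod3 (-1.42), with adjusted p from 4.96e-07 to 4.47e-05 (edgeR).

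Depth moved with these levels inside the chronic groups. In chronic 24 h the 2 lower-depth libraries lay below both higher-depth ones for 7 of the 10 genes (Lox, Loxl2, Loxl4, Plod2, Plod3, P4ha1 and P4ha2) and above them for 2 (Loxl1 and Loxl3). In chronic 72 h they lay below for 5 (Lox, Loxl1, Plod2, P4ha1 and P4ha2). The macrophage sum was 2131 and 3121 CPM in the lower-depth and 431 and 977 CPM in the higher-depth chronic 24 h libraries. In the higher-depth libraries alone (n = 2 against 2), 7 of 10 fell from chronic 24 h to chronic 72 h, where 537 of all genes fell. In the lower-depth libraries alone (n = 2 against 2) 2 did, Lox and Plod3, and calls were fewer over all genes too, of which 180 fell. There P4ha2 (-2.02, adjusted p 0.0735), Plod2 (-1.31, adjusted p 0.145), Loxl2 (-1.23, adjusted p 0.300) and P4ha1 (-0.99, adjusted p 0.175, edgeR) did not pass. The call of P4ha1 was also lost without chronic 24 h replicate 4 (-0.88) or chronic 72 h replicate 2 (-0.91).

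The same interval was compared after a single injection. Between acute 24 h and acute 72 h Lox rose (1.64, SE 0.47, adjusted p 0.0131, edgeR), 1 of 10 where 15.0% of all genes were called and 11.2% rose, and this call was lost without acute 24 h replicate 2 (1.36, adjusted p 0.0850) or acute 72 h replicate 3 (1.30, adjusted p 0.0585). Loxl3 was higher by less than 2-fold (0.84, SE 0.14, adjusted p 0.000120, edgeR). The difference between the chronic and the acute step was tested directly in the same model, a test added after the data had been seen, and passed an adjusted p of 0.05 for 7 of the 10 genes, where 10.8% of all genes passed. It was negative for all 7 (7.64% of all genes passed with this sign), at -4.64 for Lox (SE 0.66, adjusted p 7.13e-05), -2.62 for Loxl2 (SE 0.57, adjusted p 0.00399), -1.93 for P4ha2 (SE 0.44, adjusted p 0.00566), -1.64 for Plod2 (SE 0.37, adjusted p 0.00475) and -1.49 for P4ha1 (SE 0.37, adjusted p 0.00984, edgeR). For Plod3 (-0.97, SE 0.27, adjusted p 0.0187) and Loxl3 (-0.87, SE 0.19, adjusted p 0.00358, edgeR) the higher-depth libraries alone did not pass (adjusted p 0.0681 and 0.0621). The interaction did not pass for Loxl1 (0.02, SE 0.35, adjusted p 0.992), Loxl4 (-0.33, SE 0.33, adjusted p 0.614) and Plod1 (-0.33, SE 0.23, adjusted p 0.417).

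**Figure D4:**
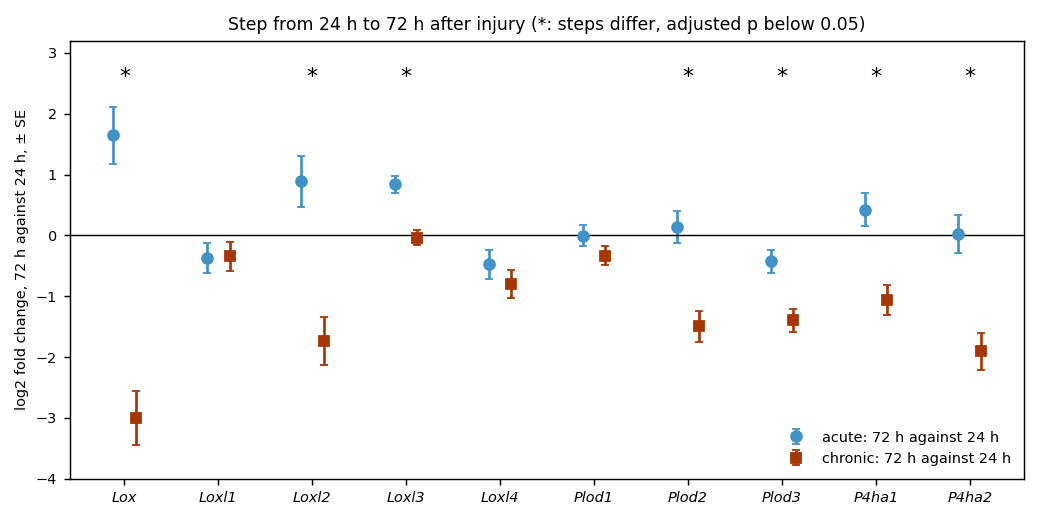
Log2 fold change of 72 h against 24 h libraries with its SE for the 10 genes, after a single injection (circles) and after the chronic course (squares), with an asterisk where the 2 steps differ at an adjusted p below 0.05. The Lox step is 1.64 after 1 injection and -3.00 after the chronic course.

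Within a library the ratio of 2 genes does not depend on scaling. Ratios of 5 pairs were compared with healthy libraries in the 6 injured groups by exact two-sided permutation tests over libraries. The smallest p that 4 against 4 or 3 against 4 libraries can give is 0.0286, and the lowest adjusted p over the 30 tests was 0.0504, reached by 17, so none passed. The log2 ratio of Lox to Loxl1 went from -4.26 ± 0.92 in healthy to 0.06 ± 1.01 in chronic 24 h libraries, and that of Plod2 to Plod1 from -3.50 ± 0.27 to -1.50 ± 0.61 (SD, n = 4), in both cases with no overlap. The log2 ratio of P4ha1 to P4ha2 was 3.71 ± 0.18 in healthy (SD, n = 4), 2.45 ± 0.11 in acute 24 h (SD, n = 3) and 4.28 ± 0.57 in chronic 14 d libraries (SD, n = 4).

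The collagen and elastin genes whose products these enzymes modify were read beside them. Of 8 substrate genes, 4 rose in chronic 24 h against healthy libraries (11.2% of all genes rose), led by Col1a1, which encodes the main chain of type I collagen (log2 fold change 4.62), with Col5a2 (2.25), Col1a2 (2.17) and Col3a1 (1.83). In acute 24 h libraries Col1a1 alone of the 8 rose (1.29), and Col5a3 (-2.62) and Eln, the elastin gene (-1.59), fell, where 9.41% of all genes rose and 12.5% fell. At acute 72 h, when Lox was 5.68 above healthy on the log2 scale, 6 of 8 rose (8.23% of all genes). From chronic 24 h to chronic 72 h no substrate gene was called by edgeR, though 3 of 8 had an unadjusted p below 0.05, among them Col5a3 (adjusted p 0.0515). Col5a1 (-0.77, adjusted p 0.00488) and Col5a2 (-0.71, adjusted p 0.0334, edgeR) were lower by less than 2-fold, and the list had a median log2 fold change of -0.25, beside 6 of 10 and a median of -1.23 for the enzymes. Col1a1 was still 4.20 above healthy at chronic 72 h, and the enzymes went both ways there. Lox (3.41), Loxl1 (1.51) and Loxl2 (1.37) were still called higher than healthy, and Plod2 and Loxl3 were at 0.27 and 0.125. P4ha1, P4ha2, Plod1, Plod3 and Loxl4 were at -0.86, -0.98, -0.66, -0.89 and -1.35. At 14 d against chronic 24 h 7 of 8 substrate genes had fallen (6.11% of all genes). The difference between the 2 lists was not tested.

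Of 24 other genes of collagen maturation 22 were tested, and in chronic 24 h against healthy libraries 8 rose and 1 fell (11.2% of all genes rose and 8.11% fell). P4ha3, the third catalytic subunit, had no count in any healthy library and 8 to 54 counts in chronic 24 h libraries, a mean of 3.13 ± 1.53 CPM (SD, n = 4), at least 11.6-fold higher with 3 counts per healthy library as the floor. At acute 7 d it was at 12.5 ± 7.19 CPM (SD, n = 4), at least 46.3-fold higher. Creb3l1, a transcription factor of collagen-secreting cells (2.37), Fkbp10, a collagen chaperone (1.70), Pcolce2, an enhancer of procollagen C-proteinase (1.64), and P3h2, a prolyl 3-hydroxylase (1.63), rose, and Colgalt2, a collagen galactosyltransferase, fell (-4.05; adjusted p from 6.36e-09 to 0.00304, edgeR). P4hb, the partner subunit of P4ha1 and P4ha2, rose as well (1.18, adjusted p 0.00158, edgeR). From chronic 24 h to chronic 72 h 5 of 22 fell, Creb3l1 (-2.0), Fkbp14 (-1.59), Fkbp10 (-1.22), P3h1 (-1.21) and P4hb (-1.16), with adjusted p from 6.76e-07 to 0.00428 (edgeR), where 3.65% of all genes fell. In acute 24 h libraries 2 of 22 rose (Creb3l1, 1.55, and Fkbp10, 1.36) and 1 fell (Colgalt2, -3.52), where 9.41% of all genes rose and 12.5% fell. In acute 72 h libraries 3 of 22 rose (8.23% of all genes), and in acute 7 d libraries 7 rose and 1 fell (9.23% and 5.64%). Chronic 72 h libraries had 2 higher and 1 lower (7.88% and 4.20%), and in chronic 14 d libraries 1 passed the adjusted p with a change under 2-fold.

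**Figure D5:**
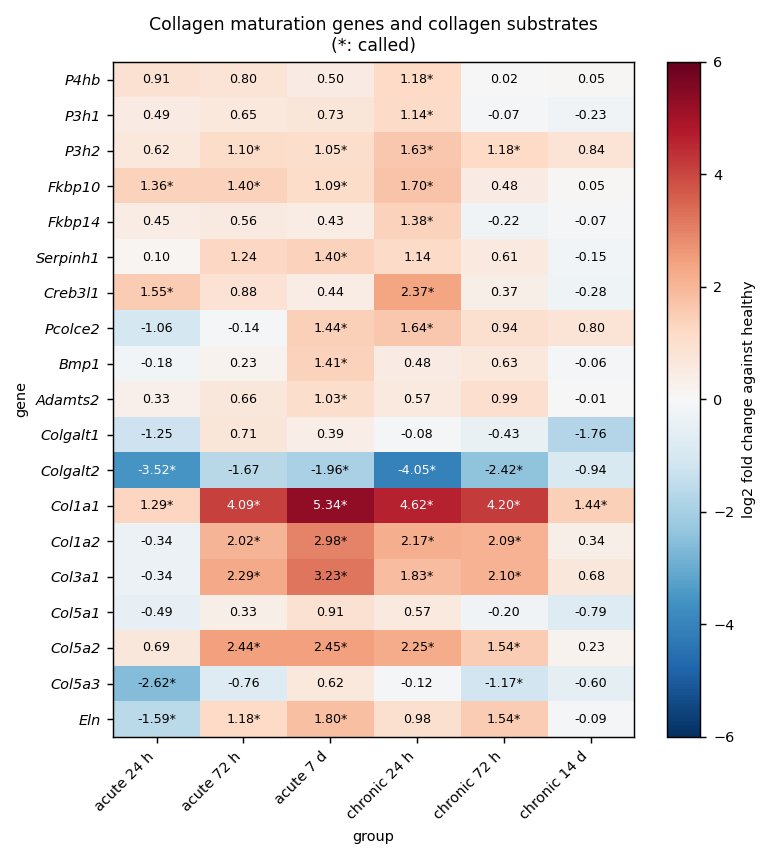
Log2 fold change against healthy libraries of 12 other collagen maturation genes (upper rows) and 7 substrate genes (lower rows) in 6 injured groups, with called changes marked by an asterisk. Col1a1 is at 4.20 in chronic 72 h libraries, where P4hb is at 0.02 and Fkbp10 at 0.48.

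Of 14 genes of the hypoxia response, a list shown because hypoxia-inducible factors are known to drive Lox, Plod2, P4ha1 and P4ha2, 3 passed as higher in chronic 24 h against healthy libraries (11.2% of all genes rose). They were Vegfa (2.0, adjusted p 2.68e-05), Egln3 (3.41, adjusted p 0.000795) and Car9 (edgeR), the last on 0 to 8 counts per library against no count in healthy ones, which is at least 1.81-fold higher with the floor of 3 counts per healthy library and so below the 2-fold minimum on that bound. In acute 24 h libraries 3 of 14 rose (9.41% of all genes), among them Pgk1 (1.34) and Slc2a1 (1.91). At acute 72 h 2 rose, at acute 7 d 4, at chronic 72 h 3 and at chronic 14 d 3. Of all genes 8.23%, 9.23%, 7.88% and 4.55% rose in turn. The median of the list was 0.51 in chronic 24 h, 0.10 in chronic 72 h and 0.09 in chronic 14 d libraries. After a single injection it was 0.24 at 24 h, 0.03 at 72 h and 0.49 at 7 d. From chronic 24 h to chronic 72 h 1 of 14 fell, Pgk1 (-1.01, adjusted p 0.000861, edgeR), where 3.65% of all genes fell. Their part in the enzyme levels was not tested.

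Across the 27 libraries the genes most like Lox in log2 CPM, among 10292 genes whose log2 CPM averaged 3 or more, were Fstl1 (Pearson's r 0.95), Kdelr3 (0.94) and Aldh18a1 (0.93). Fstl1 (0.93), Kdelr3 (0.90) and P3h1 (0.89) were most like Plod2, and Ykt6 (0.93), Emp1 (0.91) and Fstl1 (0.91) most like Loxl2. Between the 10 genes, Lox and Plod2 had an r of 0.88, and 0.73 after group means were removed. Loxl2 and Plod2 had 0.86 and 0.74 in turn, and Lox and Loxl1 0.64 and 0.01. These coefficients describe libraries that share groups and depth classes, and they carry no test.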

How the data were processed

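Values are the counts the authors deposited, whole numbers for each library and gene with no normalization. The sources name single-end reads, STAR and StringTie on GRCm38; the strand and the way counts were made are not given in the sources used here. Each of 27 columns was matched by name, and 0 were left over. GENCODE M21 held 53274 of 53379 gene IDs.

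Genes passed filterByExpr by group (18758), libraries were scaled by trimmed mean of M values, and one edgeR 4.0.16 quasi-likelihood model (R 4.3.3, limma 3.58.1) was fitted with a mean per group. Calls needed both a Benjamini-Hochberg adjusted p under 0.05 and more than 2-fold. The study ran DESeq2; version 1.42.0 served as an alternative. RPKM used the union of exons, and log ratios added 0.5 counts. Total counts of 6.31 to 13.1 M set the precision, SEs and SDs reflect the spread between libraries, and the floor of 3 counts covers counting error only. The code was tested on simulated counts. Figures used Python 3.11.15 and matplotlib 3.10.9.

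Members, lists (24 maturation, 8 substrate and 14 hypoxia genes, and 7 marker lists) and comparisons were chosen with earlier results of these data known. Named genes were all 10 members, at most 6 called genes per list and comparison by size of change, and 3 genes most like each member, of which some are left out here. P4hb in chronic 24 h, Col5a1, Col5a2 and Col5a3 in chronic 72 h and the genes drawn in the pathway plot fall outside this rule and were chosen after their values were seen. Alternatives were other scaling, tests, filters, thresholds, samples and covariates, and each library left out in turn.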

Additional observations from a re-analysis of the deposited data

Results flagged for a closer look

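The step from 24 h to 72 h differed between the chronic course and a single injection (interaction term, edgeR) for 7 of the 10 genes. The difference was -4.644 for Lox, -2.621 for Loxl2, -0.874 for Loxl3, -1.636 for Plod2, -0.972 for Plod3, -1.487 for P4ha1 and -1.93 for P4ha2 on the log2 scale. Leaving out each of 15 libraries in turn, the call held throughout for 6 of them. For Plod3 it was lost in 4 of the 15, with values from -1.09 to -0.72 and an adjusted p of up to 0.0912.

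In 60 groups of 4 libraries (10 genes and 6 groups), 1 library stood apart by Dixon's test. P4ha2 was at 25.07 CPM in acute 7 d replicate 1, and at 16.8 to 18.0 CPM in the other 3 libraries. Chance alone gives about 1 in 20 such groups.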

How the results depend on the processing

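Of 36 called changes of single enzyme genes, 17 kept the call under every alternative and 26 under all but a test against a 2-fold minimum. Of 717 refits of these 36, 670 kept the call, and the sign changed in 0. With no fold minimum the number of enzyme genes called was 8 in chronic 72 h and 6 in acute 24 h against healthy. Against acute 24 h it was 6 in chronic 24 h and 2 in acute 72 h. Over all 18758 genes 2060, 2915, 2627 and 2735 were then higher and 1688, 3404, 1373 and 1589 lower in turn. Tested against a 2-fold minimum the number of enzyme genes called was 1 in chronic 72 h, 0 in chronic 14 d and 1 in acute 7 d against healthy. Of all genes 561, 251 and 770 were then higher and 132, 12 and 193 lower in turn. The number was 1 in chronic 24 h (950 of all genes higher and 105 lower) and 0 in acute 72 h (971 and 138) against acute 24 h. In chronic 72 h against chronic 24 h it was 1 (94 and 97). With depth class as a term it was 6 in chronic 24 h against acute 24 h (1810 of all genes higher and 626 lower). In lower-depth libraries alone it was 2 in chronic 72 h against chronic 24 h (105 and 180), an alternative added after the data were seen. Fewer libraries enter the latter, and the cause of the others was not tested.

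Leaving out 1 library at a time gave 4 to 5 enzyme genes in chronic 24 h, 4 to 6 in chronic 72 h, 1 to 3 in chronic 14 d, 2 to 3 in acute 24 h, 3 in acute 72 h and 4 in acute 7 d against healthy. It gave 3 to 5 in chronic 24 h against acute 24 h, 0 to 1 in acute 72 h against acute 24 h, 5 to 6 in chronic 72 h and 6 to 7 in chronic 14 d against chronic 24 h, and 6 to 7 for the difference of steps. The count in chronic 14 d was 1 without healthy replicate 3 or chronic 14 d replicate 3, that in acute 72 h against acute 24 h was 0 without acute 24 h replicate 2 or acute 72 h replicate 3, and that in chronic 24 h against acute 24 h was 5 without chronic 24 h replicate 1. Counts over all genes in these refits are not given here, so whether the enzyme counts moved with them cannot be read.

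Signs of fold changes turned only among those that were not called, none above 0.346 in size in the main fit. Against healthy libraries, Plod3 in acute 72 h was -0.017 with DESeq2 size factors and -0.023 by DESeq2, and Plod2 in chronic 14 d was 0.005 by library size alone and 0.525 with the depth term. In chronic 24 h against acute 24 h Plod3 was -0.003 with no filter. In chronic 72 h against chronic 24 h Loxl3 was 0.083 by library size alone and 0.003 with no filter, and Loxl1 was 0.033 in higher-depth libraries. In chronic 14 d against chronic 24 h Loxl4 was 0.062 with DESeq2 size factors, 0.176 by library size, 0.020 with no filter, 0.015 at a mean of 1 CPM, 0.005 with the depth term, 0.084 from the 2 groups alone, 0.258 at lower depth and 0.058 by DESeq2. In acute 72 h against acute 24 h Plod1 was 0.110 by library size and 0.003 with the replicate block, and P4ha2 was -0.051 with no filter, -0.083 with the replicate block, -0.036 from the 2 groups alone and -0.030 at higher depth.

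With 1 library left out, Loxl1 (-0.039 to 0.407) and Plod2 (-0.293 to 0.016) in chronic 14 d, Plod3 in acute 72 h (-0.105 to 0.152) and P4ha1 in acute 7 d (-0.359 to 0.131) against healthy turned. So did Plod1 (-0.157 to 0.047) and Plod3 (-0.152 to 0.185) in chronic 24 h against acute 24 h, Plod1 (-0.196 to 0.113) and P4ha2 (-0.117 to 0.091) in acute 72 h against acute 24 h, and Loxl3 (-0.111 to 0.062) in chronic 72 h and Loxl4 (-0.116 to 0.192) in chronic 14 d against chronic 24 h. The log2 ratio of Loxl2 to Loxl1 against healthy turned as well. It ran from -0.010 to 0.702 in acute 7 d (0.41 with all libraries), -0.256 to 0.513 in chronic 14 d and -0.408 to 0.039 in chronic 72 h.

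Scaling by library size alone moved the median of all genes to 0.145 in chronic 14 d against healthy, where 91.2% of called genes were higher against 79.6% with the main scaling. The share was 67.1% against 56.4% in chronic 72 h and 67.2% against 52.1% in chronic 14 d against chronic 24 h.

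Same-numbered libraries of different groups were little more alike than others. Of 78 such pairs 15 had a correlation of deviations above 0.1, with a median of 0.014 against -0.003 in 234 other pairs. This does not decide whether same-numbered libraries shared an experiment or run. In both chronic 24 h and chronic 72 h, replicates 1 and 2 were of lower depth and replicates 3 and 4 of higher depth. With the replicate block 3 enzyme genes were called in acute 24 h (Plod2 added at 1.01) and 5 in chronic 72 h (P4ha2 added at -1.02) against healthy. Of all genes 1791 were then higher and 2311 lower in acute 24 h, and 1426 higher and 793 lower in chronic 72 h. In the main fit these were 1765 and 2353, and 1479 and 788. At 3.29 CPM on 23 reads, P4ha2 is where depth limits precision most.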
